A study of Mus musculus with 10 samples.

Results

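The translation initiation, elongation and release factors were taken as all genes whose symbol begins with Eif1 to Eif6, Eef1 or Eef2, together with Etf1 and Gspt1, and pseudogene symbols were left out. This rule found 69 members among the 24620 gene entries of the count table, and 63 of them passed the filter on low counts. The 6 members that did not pass were Eef1a2, Eef1akmt3, Eef1akmt4, Eif2d, Eif3j2 and Eif5a2. Members were sorted into 13 roles by symbol, from the scanning factors to the release factors.

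The libraries came from muscle satellite cells (MuSCs), the resident stem cells of skeletal muscle, of mice in which the Mg2+ channel TRPM7 had been removed from these cells. Control mice were Trpm7+/+; Pax7CreERT2/+; Rosa26YFP and conditional knockout mice (Trpm7 cKO) were Trpm7 flox/flox; Pax7CreERT2/+; Rosa26YFP, all C57BL6 and between 7 and 20 weeks of age. All received 5 injections of tamoxifen and then cardiotoxin (CTX) into muscle, and 3000 YFP-positive cells per library were sorted 3 days later, with 5 libraries per genotype. Cre is driven by Pax7, so recombination and the YFP label mark cells that expressed this MuSC gene, and the controls carry Cre and YFP too but no floxed Trpm7. RNA was read at the 3′ end of transcripts with a molecular identifier (CEL-Seq2), so that a count stands for a molecule and not for a length of transcript.

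Translation starts when the small ribosomal subunit, carrying eIF1, eIF1A, eIF3, eIF5 and the initiator tRNA bound to eIF2, is brought to the capped end of an mRNA by eIF4F, which is made of the cap-binding protein eIF4E, the scaffold eIF4G and the helicase eIF4A. eEF1 then delivers each aminoacyl-tRNA and eEF2 moves the ribosome along, and eRF1 and eRF3 end the chain at a stop codon. The pathway is controlled above all at cap binding, where the mTOR complex frees eIF4E from the 4E-binding proteins, and at eIF2, whose α subunit is phosphorylated by stress kinases. Quiescent MuSCs hold translation low in part through phosphorylated eIF2α, and mTOR signalling rises as they activate. None of these phosphorylations is read by RNA counts.

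Control libraries held between 914361 and 1097709 counts and Trpm7 cKO libraries between 205986 and 581121, and since these ranges do not meet, an effect of depth cannot be told apart from one of genotype. The labels do not say that the libraries of a genotype come from separate animals, so the p-values measure the spread between these libraries, which may in part be technical, and the names of Trpm7 cKO replicates 4 and 5 share a number. The 3′ tag of Trpm7 itself did not separate the genotypes, with normalized counts, scaled to a common library total (CPM), of 74.2 ± 9.38 in control and 68.6 ± 21.5 in Trpm7 cKO libraries (SD, n = 5 each). The place of the floxed part was not used here, and a 3′ tag outside it checks nothing. MuSC markers were present in every library, with 3296 to 3920 CPM in control and 3306 to 5876 CPM in Trpm7 cKO libraries, 11 of 20 tested being higher, 2 lower and 7 not called (median log2 fold change 0.72). Leukocyte markers summed to between 502 and 845 CPM in control and to between 1766 and 7800 CPM in Trpm7 cKO libraries, 29 of 29 tested being higher, and 3 markers of that list were listed at 0 in every control library. Endothelial markers (5.15 to 53.9 CPM against 94.1 to 573 CPM) were also higher in Trpm7 cKO libraries. For fibroblast markers the sums overlapped (947 to 1952 CPM against 1353 to 3518 CPM), but 3 of the 4 tested were higher, with a median log2 fold change of 1.90. The part of these other cells in the results below was not tested beyond the values given, and in such bulk samples fewer cells of a type and less RNA per cell cannot be told apart.

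Translation factor RNA made up a smaller part of the Trpm7 cKO libraries, and most of the difference lay in a few abundant members. Summed over the 69 members, control libraries held 16300, 15900, 15040, 15350 and 15150 CPM and Trpm7 cKO libraries 12920, 13670, 13590, 12950 and 13090 CPM. Every Trpm7 cKO library lay below every control library, with means of 15550 ± 535 and 13240 ± 360.0 CPM (SD, n = 5 each), a log2 difference of -0.23, given as a description with no test since the members were chosen as a list. As a share of the raw counts this was 1.53% against 1.35%. Of the difference of -2305 CPM between the means, Eif4g2, Eef1b2 and Eif5a made up -2089 CPM, or 90.6%. Over all members lower in mean the differences summed to -3763 CPM, and over those higher in mean to 1458 CPM. Without Eef1b2, Eif4g2 and Eef2, the members with the highest levels together with Eif5a, the sum was 10330 ± 368 against 9401 ± 364 CPM (SD, n = 5 each), a log2 difference of -0.14.

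Member by member, 20 of the 63 tested were lower in Trpm7 cKO libraries (31.7%), 12 were higher (19%) and 31 passed no test, by edgeR's quasi-likelihood test with an adjusted p below 0.05. Over all 7753 genes tested, 24.2% were lower and 24.5% higher, so that the members' shares were somewhat above the background for falls and below it for rises. Normalized counts of 17 members lay wholly below control, 27% of those tested against 17.9% of all genes, and all of the 17 but Eef1akmt2 were among those called. Only 2 members passed a log2 fold change of 1.5 in addition, Eif2s1 downward and Eif2ak3 upward, against 12% of all genes tested. Leaving out a library gave between 17 and 20 lower and between 7 and 12 higher members, the count of 7 being that without control replicate 3 or Trpm7 cKO replicate 2. The median log2 fold change of the members was -0.12, beside -0.01 for all genes, and the middle range of the members ran from -0.47 to 0.26 against -0.51 to 0.56 for all genes.

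**Figure D1:**
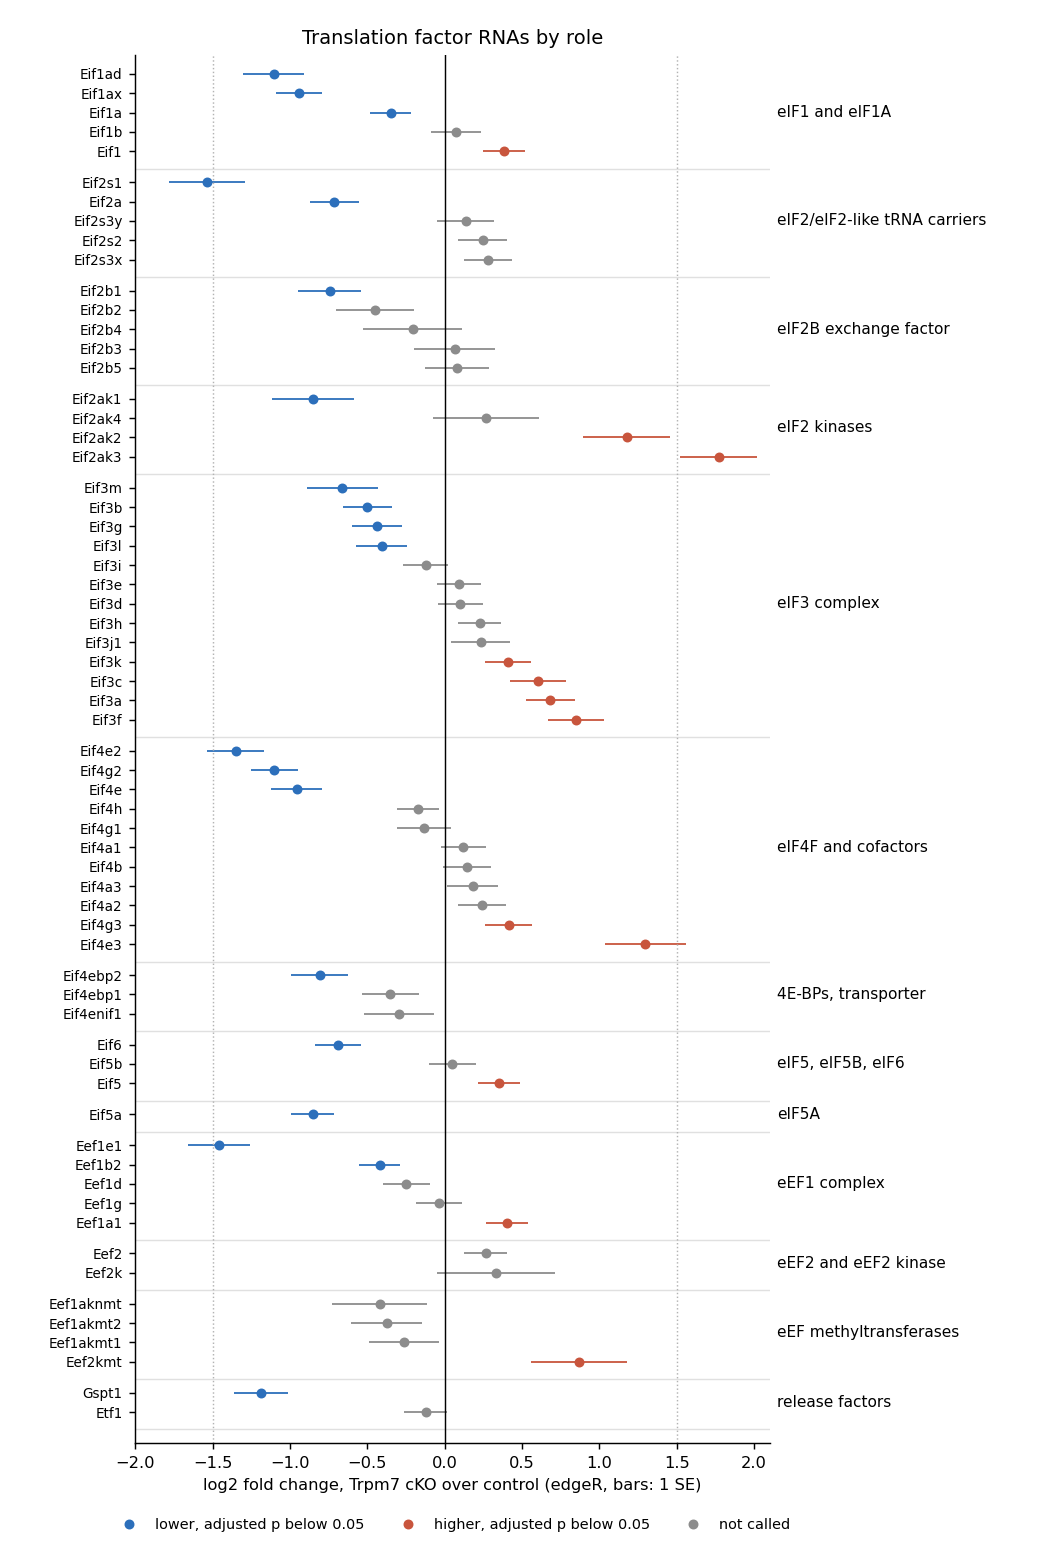
Log2 fold change (Trpm7 cKO over control, horizontal axis) of each of the 63 members tested, grouped by role, with bars of 1 SE, blue for the 20 lower, red for the 12 higher and grey for the 31 not called by edgeR at an adjusted p below 0.05. Most roles hold members on both sides of 0, and dotted lines at 1.5 in either direction are crossed by Eif2s1 and Eif2ak3. Under scaling on MuSC markers Eif5 turns to -0.01. In counts per sorted cell, which carry the difference in library totals, 9 of the 12 higher members turn below 0 and Eif2ak2 stands at 0.00.

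These directions are relative to the RNA of each library. With the libraries scaled on the sum of the MuSC markers, the median of all genes moved to -0.38 and the split of members was 28 lower and 3 higher, in place of 20 and 12. In counts per sorted cell, with no scaling for library size, that median was -1.15, and 51 members were lower and 0 higher by edgeR (0 at an unadjusted p below 0.05). Under each of the 4 other scalings tried all 20 lower members stayed below 0, while 11 of the 12 higher members stayed above 0 on MuSC markers and 2 per sorted cell. On MuSC markers 9 of the 12 lost their call, those other than Eif2ak2, Eif2ak3 and Eif4e3. With total counts alone 3 of the 20 lower members, Eif1a (-0.28), Eif3g (-0.37) and Eif3l (-0.33), lost theirs (edgeR adjusted p from 0.0742 to 0.132). Relative to the median of all genes in the same fit, the lower members lay at a median of -0.82 with TMM factors, -0.79 on MuSC markers and -0.79 per sorted cell, and the higher members at 0.65, 0.67 and 0.56. With the mean log2 level of the leukocyte markers as a covariate, 0 members were lower (3 at an unadjusted p below 0.05) and 1 was higher, Eif2ak3. Of all 7753 genes 84 were lower and 317 higher with it. The ranges of that covariate do not overlap between the genotypes, so that the fit can hardly tell them apart. With every library thinned at random to 205986 counts, 47 members were tested, 13 were lower and 9 higher, and their median was 0.05 beside 0.04 for all genes. Of all 3914 genes tested then, 867 were lower and 926 higher. The calls of Eif1a, Eif2b1, Eif3b, Eif3l, Eef1b2 and Eif3k were lost at that depth, and Eif2ak1, Eif2ak2, Eif2ak3, Eif3m, Eif4e3 and Eef2kmt did not pass the filter. Each Trpm7 cKO library was also set alone against the control range. Trpm7 cKO replicate 2, with the lowest leukocyte marker sum (1766 CPM), lay below all controls for 19 of the 20 lower members and above all controls for 10 of the 12 higher ones. Replicate 4, with the highest (7800 CPM), did so for 18 and 8.

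The factors that scan for the start codon were split, eIF1A RNAs being lower and eIF1 RNA higher. Eif1ax, which encodes eIF1A from the X chromosome, had 428, 343, 362, 413 and 334 CPM in control and 212, 227, 154, 216 and 149.7 CPM in Trpm7 cKO libraries. The groups did not overlap, and the log2 fold change was -0.94 (SE 0.15, edgeR adjusted p = 3.2e-05). Its autosomal copy Eif1a fell less, from 222 ± 15.6 to 174 ± 14.6 CPM (SD, n = 5 each), with a log2 fold change of -0.35 (edgeR adjusted p = 0.0357). This call was lost with total counts alone, at equal depth (-0.09, edgeR adjusted p = 0.739) and under 6 of the 10 omissions of a library (without control replicate 1, 3 or 4 or Trpm7 cKO replicate 1, 2 or 5, with adjusted p from 0.0502 to 0.0854). Within libraries the log2 ratio of Eif1a to Eif1ax ran from -0.90 to -0.62 in control and from -0.44 to 0.29 in Trpm7 cKO libraries, without overlap. The ratio differed by 0.63 on the log2 scale (exact permutation test over libraries, two-sided, p = 0.00794, the smallest that 5 against 5 allow, adjusted over 18 ratios 0.0476). Eif1ad, which carries an eIF1A-like domain, had a log2 fold change of -1.105 (SE 0.20, edgeR adjusted p = 0.000105) and fell from 91.8 to 43.8 CPM. Eif1, which guards the choice of start codon, rose from 416 ± 15.4 to 546 ± 86.9 CPM (SD, n = 5 each), a log2 fold change of 0.38 (edgeR adjusted p = 0.0252), on MuSC markers 0.01. Trpm7 cKO replicate 4 lay within the control range for Eif1 and the other 4 lay above it, and the call was lost without control replicate 3 or Trpm7 cKO replicates 2, 3 or 5. The paralog Eif1b had a log2 fold change of 0.07 (edgeR adjusted p = 0.74).

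Among the carriers of the initiator tRNA the fall was confined, of the 5 tested, to Eif2s1 and Eif2a. Eif2s1 encodes the α subunit of eIF2, the target of all eIF2 kinases (chr12:78861819-78887010, plus strand, GRCm38, GENCODE M21). It had 341, 214, 380.2, 399.6 and 193 CPM in control libraries and 124, 146, 80.6, 97.6 and 51.6 CPM in Trpm7 cKO libraries. Controls spread widely, replicates 2 and 5 being the lowest, yet each lay above every Trpm7 cKO library. The log2 fold change was -1.54 (SE 0.25, edgeR adjusted p = 6.33e-05). With the leukocyte covariate, whose ranges do not overlap between the genotypes, it was 0.33 and not called (edgeR adjusted p = 0.807). With each library left out, and no covariate, it ran from -1.71 to -1.42. By contrast the β subunit RNA Eif2s2 went from 369 ± 76.2 to 439 ± 63.2 CPM (SD, n = 5 each) and the γ subunit RNA Eif2s3x from 173 ± 32.3 to 209 ± 24.3 CPM, with log2 fold changes of 0.24 and 0.28 and edgeR adjusted p of 0.213 and 0.138. Neither passed the test, and both stood below 0 on MuSC markers. Eif2s3y, the Y-linked γ subunit, was counted in every library, between 40.5 and 61.8 CPM in control and between 48.0 and 71.0 CPM in Trpm7 cKO libraries, so that each library held RNA of male cells. Eif2a, which is no subunit of eIF2 and can bring initiator tRNA by another route, fell from 214 ± 16.04 to 127 ± 30.99 CPM (SD, n = 5 each; log2 fold change -0.71, edgeR adjusted p = 0.000876). Eif2d, a further such carrier, was not tested and had 10.1 to 22.2 CPM in control and 10.3 to 21.3 CPM in Trpm7 cKO libraries.

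The kinases of eIF2α moved against each other. Eif2ak3 encodes PERK, which responds to unfolded protein in the endoplasmic reticulum (chr6:70844515-70905245, plus strand). Its normalized counts were 23.0, 19.0, 26.8, 23.1 and 22.4 CPM in control and 109.8, 83.4, 87.6, 35.2 and 82.6 CPM in Trpm7 cKO libraries. Replicate 4 was the lowest Trpm7 cKO library and still above every control, and the log2 fold change of 1.77 (SE 0.25, edgeR adjusted p = 8.39e-06) was the largest rise among the members. With the leukocyte covariate it stood at 2.52 (edgeR adjusted p = 0.0218), but the ranges of that covariate do not overlap between the genotypes. Per sorted cell it was at 0.595 and not called (edgeR adjusted p = 0.151), and at equal depth it did not pass the filter. Eif2ak2, which encodes the interferon-induced, double-stranded RNA-dependent PKR, rose from 19.1 ± 3.86 to 46.2 ± 18.8 CPM (SD, n = 5 each; log2 fold change 1.18, edgeR adjusted p = 0.0017). Its lowest Trpm7 cKO value, 21.3 CPM, was in replicate 2, the library with the lowest sum of leukocyte markers, and its highest values, 57.6 and 67.1 CPM, were in replicates 4 and 5, those with the most. With the leukocyte covariate its log2 fold change was -1.33 (edgeR adjusted p = 0.297). The part of other cells in the change of either kinase RNA was not tested. Eif2ak1, which encodes the heme-regulated kinase HRI, fell from 45.2 ± 9.05 to 22.5 ± 10.9 CPM (SD, n = 5 each; log2 fold change -0.85, edgeR adjusted p = 0.0106), with replicate 4 at 40.0 CPM inside the control range. Eif2ak4, which encodes the amino acid sensor GCN2, stayed near the limit of the counts at 11.8 ± 3.08 and 13.01 ± 6.13 CPM and was not called (edgeR adjusted p = 0.546). Summed, the 4 kinases lay between 88.2 and 107 CPM in control and between 137 and 180.0 CPM in Trpm7 cKO libraries, a log2 difference of 0.70, or -0.59 per sorted cell.

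RNAs of the exchange factor eIF2B, which recharges eIF2 with GTP, were mostly not called. Their sum went from 178.1 ± 18.35 to 149.8 ± 14.57 CPM (SD, n = 5 each), with overlapping ranges. The log2 difference of this sum was -0.249, or -0.624 on MuSC markers and -1.536 per sorted cell. Of its 5 subunits Eif2b1, the regulatory α subunit, was lower, from 62.5 ± 8.74 to 36.6 ± 11.4 CPM (SD, n = 5 each; log2 fold change -0.74, edgeR adjusted p = 0.00486). At equal depth its value was -0.42 and the call was lost (edgeR adjusted p = 0.308). The other 4 were not called, with log2 fold changes from -0.45 (Eif2b2) to 0.08 (Eif2b5, the catalytic ε subunit). Their SEs ran from 0.206 (Eif2b5) to 0.318 (Eif2b4), so this does not show that they were unchanged.

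eIF3, the scaffold that holds the small subunit and its factors together, was the role with the most members in both directions. Of 13 subunits tested, 4 were higher, 4 lower and 5 not called. Eif3a, the largest subunit, had 297, 352, 236, 255 and 349 CPM in control and 399.6, 497, 571, 381 and 563 CPM in Trpm7 cKO libraries. It did not overlap between the genotypes, with a log2 fold change of 0.68 (SE 0.16, edgeR adjusted p = 0.00133). Eif3f had 109, 110.3, 98.9, 80.9 and 97.6 CPM in control and 171, 149, 221, 126 and 263 CPM in Trpm7 cKO libraries, again without overlap (log2 fold change 0.85, SE 0.18, edgeR adjusted p = 0.000598). On MuSC markers neither was called, Eif3a being at 0.32 (edgeR adjusted p = 0.204) and Eif3f at 0.49 (0.074). Eif3c (0.61) and Eif3k (0.41) were the other higher subunits, at 0.26 and 0.02 on MuSC markers and not called there, and the call of Eif3k was also lost without control replicate 3 or Trpm7 cKO replicate 1, 2 or 3. The lower ones were Eif3m (-0.66), Eif3b (-0.50), Eif3g (-0.44) and Eif3l (-0.41). Eif3l lost its call under 7 of the 10 omissions of a library (those other than control replicate 2 and Trpm7 cKO replicates 1 and 4), and Eif3g without control replicate 4 or Trpm7 cKO replicate 4 or 5. At equal depth Eif3b stood at -0.36 (edgeR adjusted p = 0.183) and Eif3l at -0.21 (0.455). Eif3m fell from 43.8 ± 10.4 to 26.9 ± 3.92 CPM (SD, n = 5 each; edgeR adjusted p = 0.0208, and 0.0618 without control replicate 3), but 98.6% of the last 500 bases of its transcript also occur, in runs of 31 bases, in transcripts of other genes such as Ccdc73, which overlaps it on the other strand. Subunits of the same octamer stood on both sides, Eif3a, Eif3c, Eif3f and Eif3k above and Eif3l and Eif3m below. The eIF3 sum went from 2097 ± 160.0 to 2452 ± 250.1 CPM (SD, n = 5 each), with overlapping ranges, a log2 difference of 0.22, or -0.15 on MuSC markers.

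The role of the cap-binding complex eIF4F and its cofactors, in which Eif4g2 was counted, differed most in amount of any role. The sum was 3919 ± 180.0 CPM in control and 2590 ± 199 CPM in Trpm7 cKO libraries (SD, n = 5 each), a log2 difference of -0.60, without overlap. Most of this lay in Eif4g2, with a difference of -1151 CPM between the means. The lack of overlap is shown only for the sum with Eif4g2 in it, and not for eIF4F itself. Eif4g2, the most abundant member of all, encodes DAP5, an eIF4G relative that lacks the eIF4E-binding part and works in cap-independent initiation (chr7:111067750-111083030, minus strand). Its counts were 2256, 2032, 2318, 2280 and 1851 CPM in control and 1305, 1047, 862, 990.1 and 779.5 CPM in Trpm7 cKO libraries. All Trpm7 cKO libraries lay well under the lowest control, and the log2 fold change was -1.1 (SE 0.15, edgeR adjusted p = 6.11e-06). Eif4e, the cap-binding subunit itself (chr3:138526179-138559696, plus strand), had 283, 206.5, 291, 330.3 and 213 CPM in control and 135, 153, 123, 150.4 and 108 CPM in Trpm7 cKO libraries. These did not overlap either, with a log2 fold change of -0.96 (SE 0.16, edgeR adjusted p = 6.74e-05). Eif4e2, which encodes the cap-binding repressor 4EHP (chr1:87213914-87240488, plus strand), fell from 212 ± 52.6 to 82.0 ± 10.2 CPM (SD, n = 5 each), a log2 fold change of -1.35 (edgeR adjusted p = 5.07e-06). The third cap-binding paralog, Eif4e3, went the other way, with 17.2, 28.1, 13.4, 14.4 and 23.6 CPM in control and 30.6, 46.1, 56.1, 48.0 and 72.3 CPM in Trpm7 cKO libraries (log2 fold change 1.30, SE 0.26, edgeR adjusted p = 0.000389). It remained below Eif4e in counts of molecules in every library, and with the leukocyte covariate its log2 fold change was 0.41 (edgeR adjusted p = 0.808). Of the scaffolds, Eif4g1 was not called (205 ± 49.9 against 189 ± 29.1 CPM, SD, n = 5 each; log2 fold change -0.14, edgeR adjusted p = 0.546), and Eif4g3 was higher at 0.41, a call lost on MuSC markers (0.08) and without control replicate 1, 2 or 3 or Trpm7 cKO replicate 2, 3 or 4. The helicase RNAs Eif4a1, Eif4a2 and Eif4a3 and the helicase cofactors Eif4b and Eif4h were not called, with log2 fold changes from -0.17 to 0.24. The level of Eif4a3 is uncertain, since 82% of its last 500 bases occur in transcripts of 3 other genes.

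**Figure D2:**
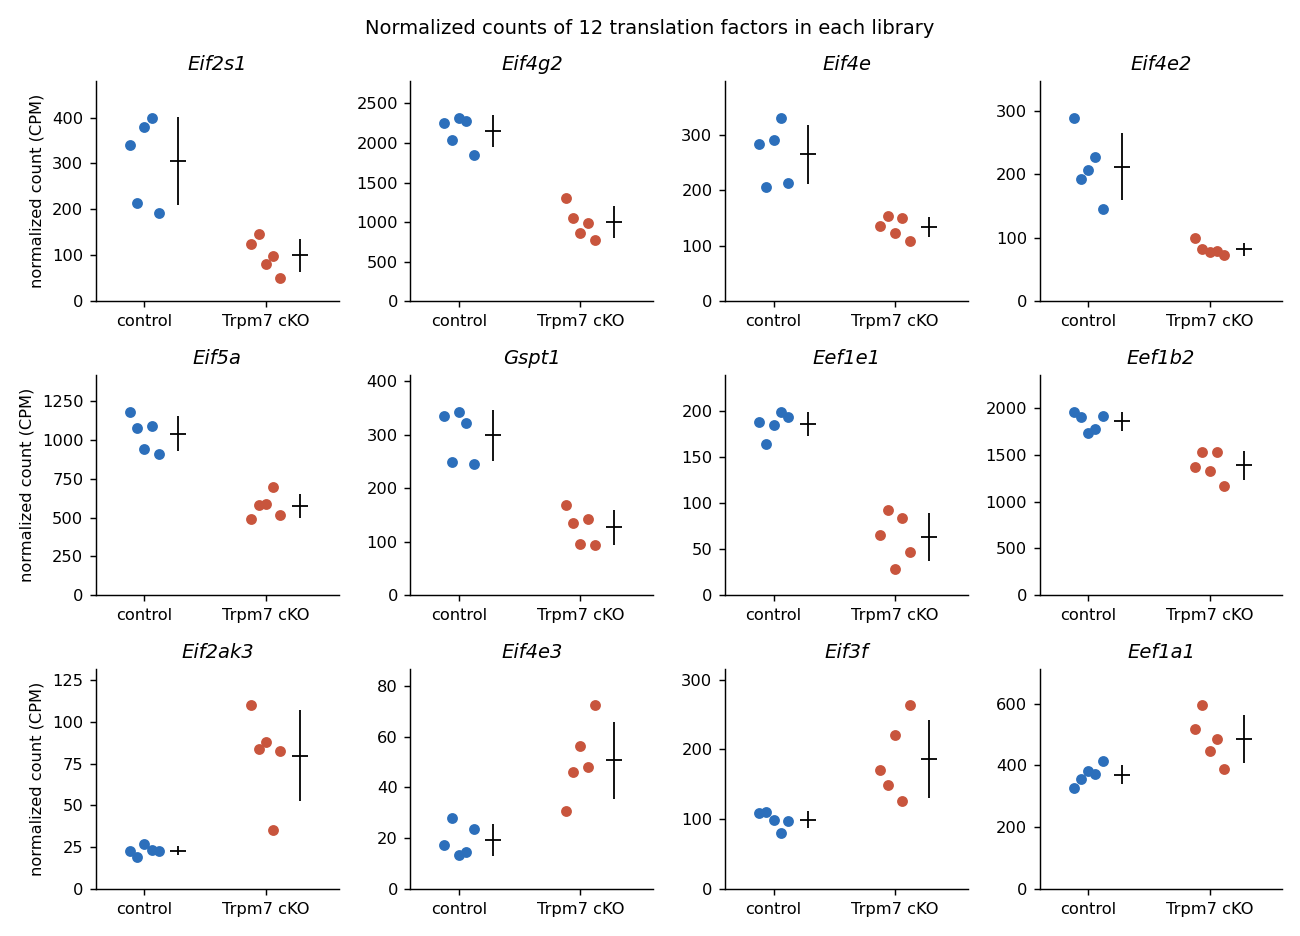
Normalized counts (CPM, vertical axes starting at 0) of 12 members in each of the 5 control (blue) and 5 Trpm7 cKO (red) libraries, with the mean and SD beside the points. In the upper 8 panels no Trpm7 cKO library reaches the lowest control, and Eif2ak3, Eif4e3 and Eif3f show the opposite, while Eef1a1 overlaps in Trpm7 cKO replicate 5 (387 CPM). In counts per sorted cell, which carry the difference in library totals, Eif3f and Eef1a1 turn below 0.

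The 4E-binding proteins, which hold eIF4E away from eIF4G until mTOR phosphorylates them, summed, with the transporter Eif4enif1, to 268 ± 40.0 CPM in control and 178 ± 24.6 CPM in Trpm7 cKO libraries (SD, n = 5 each). Eif4ebp2 was the member called, with 166.5, 122, 147, 165 and 120.1 CPM in control and 68.4, 90.5, 63.1, 115 and 56.8 CPM in Trpm7 cKO libraries. No library overlapped, and the log2 fold change was -0.81 (SE 0.18, edgeR adjusted p = 0.00113). Eif4ebp1 was not called, at 91.9 ± 19.9 and 72.7 ± 8.59 CPM (SD, n = 5 each; log2 fold change -0.35, edgeR adjusted p = 0.12), and leaving out control replicate 5, its lowest control, gave -0.46 with an adjusted p of 0.0285. Within libraries, the log2 ratio of Eif4e to Eif4ebp1 ran from 1.14 to 1.83 in control and from 0.57 to 1.17 in Trpm7 cKO libraries, a difference of -0.66 (exact permutation p = 0.0159, adjusted over 18 ratios 0.0477). That of Eif4ebp1 to Eif4ebp2 differed by 0.59 (exact permutation p = 0.0159, adjusted 0.0477).

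At subunit joining the sums of eIF5, eIF5B and eIF6 were alike in size, 748 ± 49.5 and 753 ± 112 CPM (SD, n = 5 each), while members moved in opposite directions. Eif6, which keeps the large subunit from joining too early, had 253.6, 202, 201, 248 and 193 CPM in control and 117, 122, 158, 146 and 144 CPM in Trpm7 cKO libraries. The genotypes did not overlap, with a log2 fold change of -0.69 (SE 0.15, edgeR adjusted p = 0.000682). Eif5, which triggers GTP hydrolysis by eIF2, was higher at 0.35 (edgeR adjusted p = 0.0401), a call lost under 7 of the 10 omissions of a library, with adjusted p from 0.0602 to 0.0962 (without each control but replicate 5, and without Trpm7 cKO replicate 2, 3 or 5). Eif5b was not called, and it shares 47.8% of its last 500 bases with Rev1 on the other strand.

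Eif5a, which carries hypusine and eases peptide bond formation at difficult residues such as proline, was among the members with the most counts (chr11:69916714-69921958, minus strand). It had 1183, 1077, 939.7, 1090 and 908 CPM in control and 489.7, 582, 589, 694 and 516 CPM in Trpm7 cKO libraries. The highest Trpm7 cKO library lay below the lowest control, and the log2 fold change was -0.85 (SE 0.14, edgeR adjusted p = 4.11e-05). Its paralog Eif5a2 was not tested, at up to 26 counts in a control library.

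The role of the eEF1 complex, which loads aminoacyl-tRNA onto the ribosome, was formed by symbol and so includes Eef1e1. It summed to 2914 ± 113 CPM in control and 2390 ± 232 CPM in Trpm7 cKO libraries (SD, n = 5 each), without overlap. Eef1b2, the exchange factor subunit, led this by amount, with 1965, 1911, 1734, 1777 and 1917 CPM in control and 1372, 1537, 1332, 1531 and 1167 CPM in Trpm7 cKO libraries. Each Trpm7 cKO library was lower than each control, a log2 fold change of -0.42 (SE 0.13, edgeR adjusted p = 0.0123). At equal depth it was -0.34 and missed the threshold (edgeR adjusted p = 0.0594). Of the last 500 bases of Eef1b2, 30.2% also occur in transcripts of other genes, 245 in all. Eef1e1 led by size, from 186 ± 13.2 to 62.96 ± 26.3 CPM (SD, n = 5 each; log2 fold change -1.46, edgeR adjusted p = 5.67e-06). Despite its symbol it encodes AIMP3, a scaffold of the multi-tRNA synthetase complex. The role sum thus holds a gene outside eEF1 that differed by -123 CPM between the means. The lack of overlap of that sum is shown only with Eef1e1 included. Eef1d and Eef1g, the other subunits of the exchange factor, were not called (log2 fold changes -0.25 and -0.04). Eef1a1, the tRNA-carrying subunit, was higher, with 328, 357, 381, 373 and 413 CPM in control and 517, 595, 445, 486 and 387 CPM in Trpm7 cKO libraries (log2 fold change 0.40, SE 0.14, edgeR adjusted p = 0.02). Replicate 5 of Trpm7 cKO lay within the controls, the call was lost without control replicate 1 (adjusted p = 0.0571) or Trpm7 cKO replicate 2 (0.0903), and on MuSC markers the value was 0.04. The level of Eef1a1 is uncertain, since 78.6% of its last 500 bases occur in transcripts of 25 other genes and how reads with several matches were treated is not given in the sources used here. Eef1a2, its muscle and neuron paralog, was at 0 to 1 counts in control and 0 to 2 counts in Trpm7 cKO libraries.

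Eef2, which moves the ribosome by a codon, and its inhibitory kinase Eef2k were not called. Eef2 had 1212 ± 160.0 CPM in control and 1459 ± 173 CPM in Trpm7 cKO libraries (SD, n = 5 each; log2 fold change 0.26, edgeR adjusted p = 0.127), and on MuSC markers stood at -0.09. Eef2k was at 12.9 ± 4.08 and 14.9 ± 8.91 CPM, with 0 counts in Trpm7 cKO replicate 3. Among the enzymes that methylate the elongation factors, Eef2kmt was higher at 0.87 (edgeR adjusted p = 0.0243, from 14.8 ± 6.38 to 27.6 ± 7.82 CPM, SD, n = 5 each). Its call was lost without control replicate 1, 3 or 5 or Trpm7 cKO replicate 1 or 4 (adjusted p from 0.0527 to 0.0721), and 42.6% of its last 500 bases are shared with Alg1 on the other strand. Eef1akmt1, Eef1akmt2 and Eef1aknmt were not called, with log2 fold changes from -0.42 to -0.26, and Eef1akmt3 and Eef1akmt4 were not tested.

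The release factors separated. Gspt1, which encodes the GTPase eRF3 (chr16:11219292-11254325, minus strand), had 335, 249, 343, 322 and 244.6 CPM in control and 169, 135, 94.6, 142 and 92.9 CPM in Trpm7 cKO libraries. There was no overlap, and the log2 fold change was -1.19 (SE 0.17, edgeR adjusted p = 1.12e-05). Etf1, which encodes the stop codon reader eRF1, was not called, at 298 ± 25.6 and 271 ± 42.4 CPM (SD, n = 5 each; edgeR adjusted p = 0.4955). Their log2 ratio within libraries, Etf1 to Gspt1, ran from -0.43 to 0.34 in control and from 0.90 to 1.57 in Trpm7 cKO libraries, a difference of 1.104 (exact permutation p = 0.00794, adjusted 0.0476). As a geometric mean, 1.005 Etf1 molecules were counted per Gspt1 in control and 2.16 in Trpm7 cKO libraries.

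**Figure D3:**
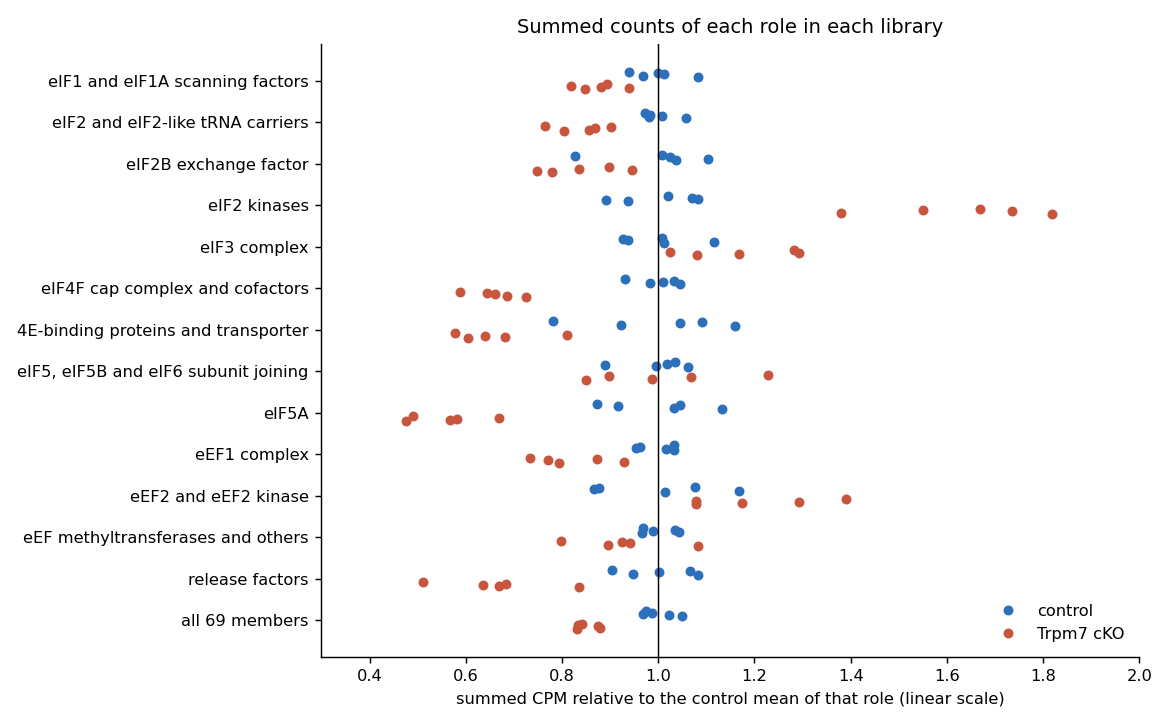
Summed CPM of each role in each library divided by the control mean of that role (horizontal axis, linear), for 5 control (blue) and 5 Trpm7 cKO (red) libraries. Sums of eIF4F (with Eif4g2), eIF5A, eEF1 (with Eef1e1), the release factors, the tRNA carriers and all 69 members lie wholly below control. Those of the eIF2 kinases lie wholly above. In counts per sorted cell, which carry the difference in library totals, the kinase sum turns to -0.59.

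Of the 13 role sums, those of eIF4F, eIF5A, the release factors, eEF1 and the tRNA carriers (log2 difference -0.26) lay wholly below control. The eIF4F sum includes Eif4g2 and the eEF1 sum includes Eef1e1, which are not parts of those complexes. For these 2 roles the separation is shown only with those genes in the sum. The ranges of the 4E-binding proteins (-0.59) and of the scanning factors (-0.19) overlapped or touched, and that of the eIF2 kinases lay wholly above. eIF2B, eIF3, subunit joining, eEF2 with its kinase and the methyltransferases overlapped, with log2 differences from -0.25 to 0.27. Ratios within a library do not depend on how libraries are scaled, but with very few counts in the denominator they can depend on depth. Of the 18 formed, 6 differed at an adjusted p below 0.05. Besides the 4 above, Eif2s1 to Eif2ak4 differed by -1.78 on the log2 scale, with Eif2ak4 at no more than 13 counts. The ratio of Eef1a1 to Eef1a2 rests on at most 2 counts of Eef1a2. It differed by -1.69, but by 0.18 at equal depth, so its difference cannot be told apart from one of depth. Its p is among the smallest, and the adjustment over 18 ratios was not repeated without it. The other ratios that differed kept their sign at equal depth, where 0 of 18 passed the exact permutation test. Eif4g1 to Eif4g2 differed by 1.03 (exact permutation p = 0.0238) but missed the threshold over 18 ratios at 0.0536. Ratios among the helicases, Eif4a1 to Eif4a2 (-0.09) and Eif4a1 to Eif4a3 (-0.03), and of Eef2 to Eef1a1 (-0.11) did not pass. These adjusted values sit close to the threshold, and the pairs were formed from members chosen with earlier results of these data known. With control replicate 1, 3, 4 or 5 or Trpm7 cKO replicate 2, 3 or 5 left out, 0 of 18 ratios passed the exact permutation test, 8 or 9 having an unadjusted p below 0.05.

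**Figure D4:**
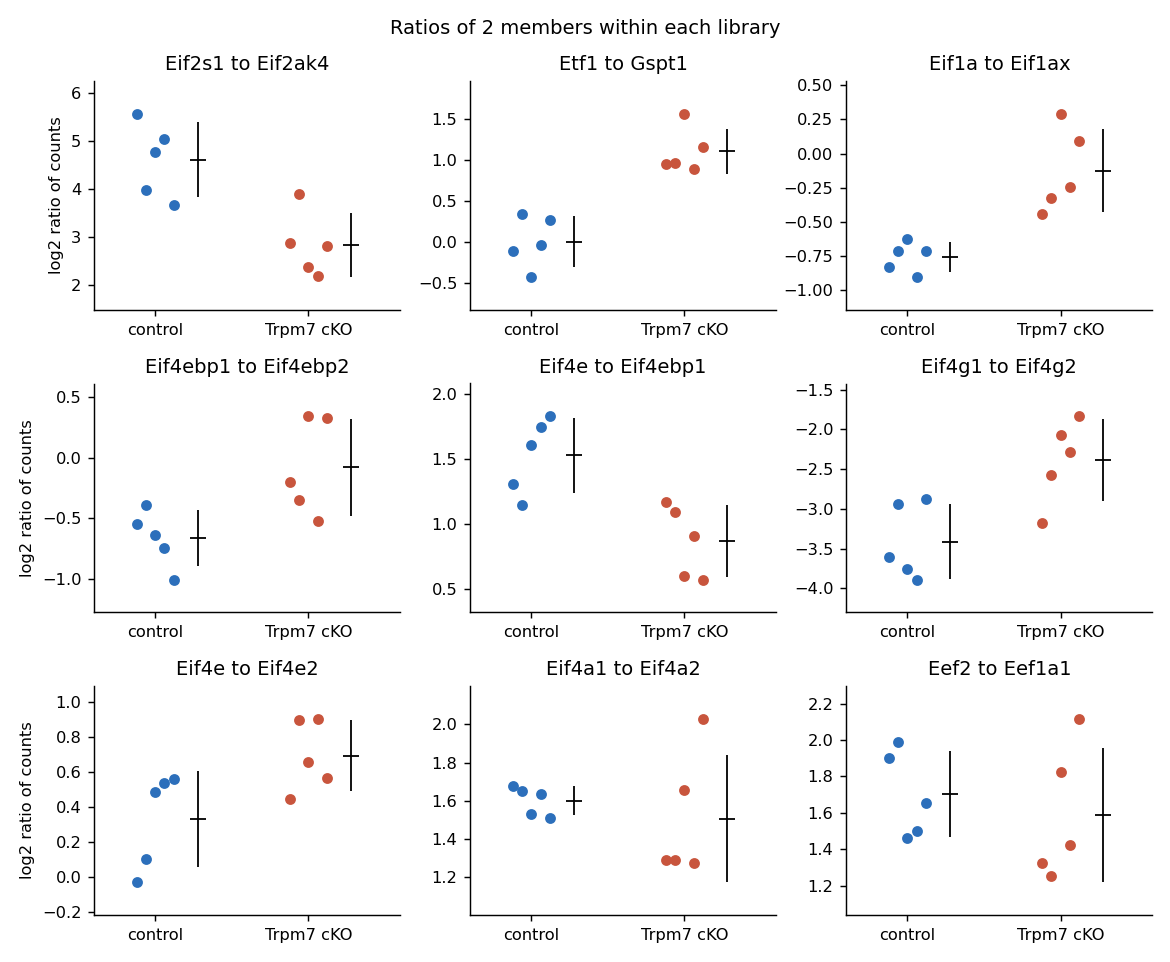
Log2 ratio of the counts of 2 members within each library (vertical axes, each with its own range), for 5 control (blue) and 5 Trpm7 cKO (red) libraries, with mean and SD. Etf1 to Gspt1 and Eif1a to Eif1ax separate the genotypes fully, and Eif4a1 to Eif4a2 and Eef2 to Eef1a1 do not.

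Other genes of the pathway were read from lists made beside the members. The 80 cytosolic ribosomal protein genes tested had a median log2 fold change of 0.46, with 44 higher and 7 lower, against the members' -0.12. Their sum was 79020 ± 3475 CPM in control and 92780 ± 15210 CPM in Trpm7 cKO libraries (SD, n = 5 each). The ranges overlapped, at 75720 to 84770 CPM against 72240 to 112200 CPM, and Trpm7 cKO replicate 4 lay below every control. These directions too are relative to the RNA of each library, and other scalings are not given for these genes. Members counted per ribosomal protein RNA were at 0.197 ± 0.00801 in control and 0.146 ± 0.0226 in Trpm7 cKO libraries, without overlap. Translation factors whose mRNAs are known to carry a terminal oligopyrimidine tract, the mark of mTOR-controlled ribosomal protein mRNAs, numbered 9 tested, of which 1 was lower, 2 were higher and 6 not called, with a median of 0.14. Of 26 translation partners tested, such as poly(A)-binding, helicase and phosphatase subunits, 4 were lower and 2 higher, with a median of -0.02. Ppp1r15a, which brings the phosphatase to eIF2α, rose from 222 ± 31.4 to 697 ± 159 CPM (SD, n = 5 each; log2 fold change 1.65, edgeR adjusted p = 1.8e-07), and Cpeb1, a regulator of poly(A) tails, rose by 2.31. Dhx29, a helicase for structured leaders, fell by 1.48 on the log2 scale and Impact, which restrains GCN2, by 0.70. Of 5 mitochondrial translation factors tested, 3 were lower, from Mrrf, the recycling factor (-1.41), to Tsfm (-0.52).

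**Figure D5:**
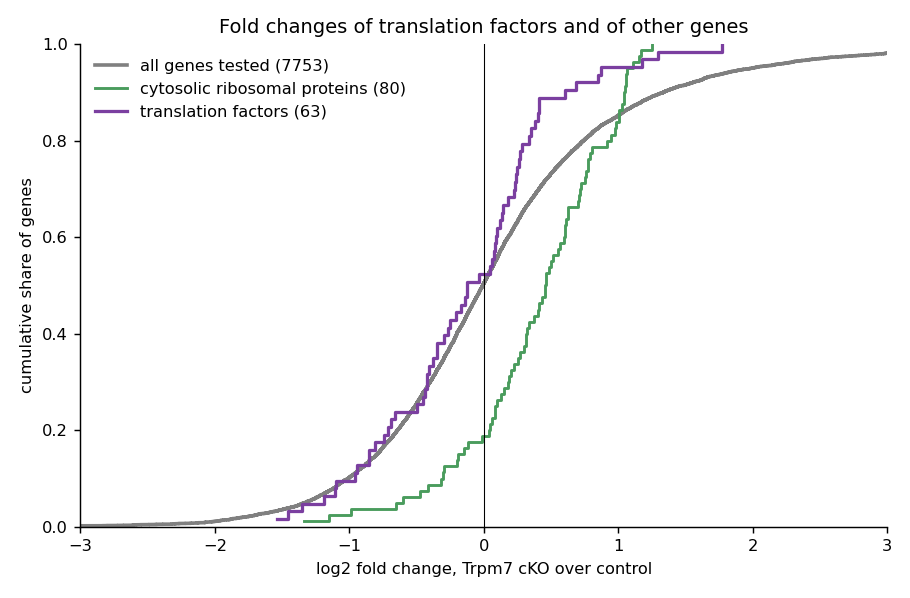
Cumulative share of genes (vertical axis) against log2 fold change (horizontal axis, shown from -3 to 3) for the 63 members, 80 cytosolic ribosomal protein genes and all 7753 genes tested. The members have a median of -0.12 against -0.01 for all genes and hold fewer large changes. Of the 63, 2 are called with a log2 fold change beyond 1.5, against 12% of all genes. Ribosomal protein genes lie to the right, with a median of 0.46.

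Promoters of the members were read from RefSeq (GRCm38.p6), from 250 bases before to 50 bases after each start, and 54 of the 69 members had an entry. The E-box CACGTG, which reads the same on both strands, was the word searched, because it is the recognition word of MYC and its relatives and is known at translation genes. It stood in the promoters of 14 of 54 members (25.9%), against 12.5% of the 6107 tested genes with an entry and 8.09% of all 27025 genes with one, a gene counting where any of its promoter windows held the word. Of all 32851 windows 7.15% held it. Among members it was found in 2 of 17 lower, 3 of 11 higher and 7 of 22 tested but not called, and these shares were not compared by a test. The following stretches of 26 bases show it in capitals, in lower members (Eif4e, nearest the start, and Eif5a), higher ones (Eif3f, Eif3k) and members not called (Eif4g1, Eef2):
Eif4e, chr3:138527194-138527219, plus strand: acacgtccgtCACGTGggcaggagcc
Eif5a, chr11:69921445-69921470, minus strand: ggggcggggtCACGTGtgtgcgtcat
Eif3f, chr7:108934337-108934362, plus strand: agatatgattCACGTGgtataaattt
Eif3k, chr7:28981917-28981942, minus strand: ggaaggaaatCACGTGgtagacaaaa
Eif4g1, chr16:20672663-20672688, plus strand: cagtgggtgtCACGTGatggggcgga
Eef2, chr10:81176578-81176603, plus strand: ccggcgccgtCACGTGacgcacccaa
A match is a stretch of letters and not a shown binding site.

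A pyrimidine tract at the start, counted as C followed by at least 4 of C or T beginning within 3 bases of the annotated start on the gene's strand, was found in 10 of 54 members (18.5%). It stood in 15.4% of the tested genes with an entry, 13.5% of all genes with one, 11.5% of all promoter windows and 40.6% of 64 ribosomal protein genes. By direction it was in 3 of 17 lower, 2 of 11 higher and 5 of 22 members not called. Members without an entry, among them Eef1d, Eef1g, Eif3e, Eif3h and Eif4g2, are missing from the members' shares, which may therefore differ from those of the whole list. Windows of 25 bases from 5 before the start are shown, with the tract in capitals, for Eef1a1, a known carrier of such a tract, and for Eif3f and Eif2s3x, which have long ones. Eef1a1 and Eif3f were higher and Eif2s3x was not called:
Eif3f, chr7:108934410-108934434, plus strand: gctCTCTCTCTTTCTCggcaagatg
Eef1a1, chr9:78481705-78481729, minus strand: ccCTCTTCCCgagggtgggggagaa
Eif2s3x, chrX:94212632-94212656, minus strand: ttttCCTTTTCTCTCCgagcaagat
Annotated starts can differ by a few bases from those used in MuSCs, and no match says only that these letters are not in this window.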

How the data were processed

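CEL-Seq2 libraries were made from sorted MuSCs of 5 control and 5 Trpm7 cKO samples. The authors extracted barcodes and molecular identifiers with UMI-tools 1.1.4, trimmed with Trim Galore 0.6.10, aligned to GRCm38 with HISAT2 2.2.1, counted with featureCounts 2.0.6 and removed duplicates. The deposited values are whole-number counts per gene without normalization. The annotation release, strand setting and treatment of reads with several matches are not given in the sources used here. Genotype and replicate were taken from the sample titles, and every column was matched.

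All fits used edgeR 4.0.16 (R 4.3.3). Genes passing filterByExpr (minimum count 10, minimum total 15) were fitted with TMM factors and a robust quasi-likelihood model with genotype as the only term, and p-values were adjusted over all 7753 genes (Benjamini-Hochberg). A gene was called at an adjusted p below 0.05. CPM values use TMM-scaled totals. Ratios are of counts plus 0.5 and were compared by exact permutation tests over 252 arrangements, two-sided, with Benjamini-Hochberg adjustment over 18 ratios. Tests planned for sums over members are not printed, because members and lists were chosen with earlier results of these data known. The ratios are formed from these same members, so their printed p-values share this limit.

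Members named with full values are, per role, the one with the highest mean CPM and up to 3 called by size of change, beside Eef1a1, Eef1a2, Eef2, Eef2k, Eif4e, Eif4g1, Eif4a1, Eif4ebp1, Eif4ebp2, Eif2s1, Eif2ak3, Eif2ak4, Eif5a and Eif6. The rest are given by name, range and count, and of other lists at most 4 called genes. In simulated counts the test called 100 of 100 genes changed 4-fold and 91 of 100 changed 2-fold (7928 genes), none in the wrong direction. There, rare genes were not among those changed, all genes had the same dispersion, and no RNA of other cells was added. These shares are therefore no measure of power for the rarer members in these libraries. Alternatives were RLE factors, total counts, scaling on MuSC markers, counts per sorted cell, other filters, DESeq2 1.42.0, limma-voom (limma 3.58.1), thinned counts, the replicate number as a block, a leukocyte covariate, a pseudocount of 2, Trpm7 cKO replicates 4 and 5 summed, and each library left out. Chi-square tests found no 2 libraries alike within sampling error. Counts limit precision by counting error, and genes below the filter were not tested. Positions come from GENCODE M21 (GRCm38), sequences shared with other genes from matches of 31 bases in the last 500 transcript bases, and promoters from RefSeq. Both promoter words were chosen after the fold changes were known.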

Additional observations from a re-analysis of the deposited data

Results flagged for a closer look

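Among 138 sets of 5 libraries examined (member levels, role sums and ratios), 8 held a library far from the other 4, and chance flags about 1 in 20 such sets. In control replicate 4, Eef1a2 had 0.963 CPM, a single count, and 0 in the other controls, which also gave the lowest log2 ratio of Eef1a1 to Eef1a2 (8.01, the next being 9.42). The same library had the highest log2 ratio of Eif1 to Eif1b (2.42, next 2.13). Trpm7 cKO replicate 5, the smallest library, stood apart for Eif2b5 (87.8 CPM, next 50.4), for the log2 ratio of Eif4g1 to Eif4g3 (1.12, next 0.77) and for that of Eef1b2 to Eef1d (1.88, next 2.60). Eef1akmt1 was highest in Trpm7 cKO replicate 1 (43.2 CPM, next 28.8). The log2 ratio of Eef2 to Eef2k was 9.82 in Trpm7 cKO replicate 3, where Eef2k had 0 counts, and 6.55 in the next library. No cause was tested.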

How the results depend on the processing

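Depth limits the rarer members, the smallest library holding 205986 counts. Values per sorted cell are from raw counts and carry the difference in library totals, so falls there cannot be told apart from depth. Counts over all genes are given above for MuSC markers, sorted cells, the leukocyte covariate and thinned counts. RLE factors, total counts, the CPM filter, DESeq2 and limma-voom gave between 17 and 20 lower and 12 higher members. The call of Eif3l was lost with RLE factors, DESeq2 and limma-voom. With the replicate block (a paired fit), 19 were lower and 9 higher, without Eif1a, Eif3k, Eif4g3 and Eif5. Same-numbered libraries had correlations of their deviations from -0.10 to 0.18, so that the numbers do not pair them. Without a library, lower members numbered 17 to 20, higher members 7 to 12 and ratios that differed 0 to 6. No filter gave 5 higher members of 69, beside 2881 higher of 21922 genes, and the median of the members was -0.24 (Eif2b5 -0.12, Eif4a1 -0.087, Eif5b -0.16). Scaling on MuSC markers gave 3 higher members and a median of -0.46, with Eef2 at -0.089, Eef2k -0.062, Eif2ak4 -0.088, Eif2b5 -0.28, Eif2s2 -0.081, Eif4a1 -0.23, Eif5 -0.013, Eif5b -0.29, the eIF3 sum -0.15 and the eEF2 sum -0.11. Per sorted cell 51 members were lower, 0 higher, with a median of -1.25, with Eif2ak2 at 0.00, and 27 of the 30 members above 0 turned below it, among them Eif3c (-0.65), Eif3k (-0.75), Eif4g3 (-0.73), Eef1a1 (-0.69), Eef2 (-0.94), Eef2k (-0.78), Eef2kmt (-0.28), Eif1 (-0.82), Eif2ak4 (-0.85), Eif2b5 (-1.10), Eif2s2 (-0.93), Eif3a (-0.53), Eif3f (-0.40), Eif4a1 (-1.08), Eif5 (-0.85), Eif5b (-1.16), as did the sums of eIF2 kinases (-0.58), eIF3 (-1.06) and eEF2 (-1.02). Thinned counts gave 13 lower members of 47 tested, a median of 0.054 and 0 ratios passing the exact permutation test (7 at an unadjusted p below 0.05), with Eif4g1 at 0.054, the subunit joining sum 0.13, the methyltransferase sum 0.14, and log2 ratios of Eef1a1 to Eef1a2 at 0.18, Eif4a1 to Eif4a2 0.047, Eif3j1 to Eif3j2 0.046 and Eef2 to Eef2k -0.13. The leukocyte covariate left 0 lower (edgeR, 3 at an unadjusted p below 0.05) and 1 higher member, with Eef2 at -0.088, Eif2ak2 -1.33, Eif2ak4 -0.88, Eif2b5 -0.43, Eif2s1 0.33, Eif2s2 -0.45, Eif4a1 -0.16, Eif5b -0.40 and Etf1 0.04. With Trpm7 cKO replicates 4 and 5 summed, Eif5b was at -0.02 and 0 ratios passed (exact permutation test, 8 at an unadjusted p below 0.05). Total counts put the subunit joining sum at 0.053, and a pseudocount of 2 put Eef2 to Eef2k at -0.074. Leaving out a library turned the sign of the subunit joining sum (-0.081 to 0.048), Eif2ak4 (-0.002 to 0.43), Eif2b5 (-0.074 to 0.14), Eif5b (-0.053 to 0.12), and the ratios Eef2 to Eef2k (-0.36 to 0.66), Eif3j1 to Eif3j2 (-0.63 to 0.053) and Eif4a1 to Eif4a3 (-0.20 to 0.071). The causes were not tested.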
